A study of Mus musculus with 22 samples.

Results

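The cytosolic ribosomal protein genes were described in mouse lung across an allergy model with and without farm dust. They were taken as the gene rows whose symbol is Rpl, Rps or Rplp followed by a number, with an optional a, x or l, which gave 83 of 24405 genes. Of the 83, 43 belong to the large subunit, 30 to the small subunit and 3 to the acidic stalk of the large subunit, and 7 are paralogues with an l in the name. Rpsa, Fau and Rpl36al encode further ribosomal proteins, and the naming rule did not take them in. The samples were 22 libraries of poly(A) RNA from caudal lobes of the right lung of wild-type C57BL/6 mice, whose age the design text gives only as old. In the saline arm, labelled as sensitised with saline, 6 libraries had no particulate matter (PM) and 5 had a challenge with 3 µg of PM from a goat farm. In the OVA arm, labelled as sensitised with ovalbumin, 6 libraries had no PM and 5 had the same dose. The protocol also speaks of OVA/Sal and OVA/OVA mice, so the arms are named only by the label of sensitisation. The labels do not say that the libraries of a group came from separate animals, and p-values measure the spread between these libraries.

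Library totals ran from 0.302 to 28.01 M counts (M, counts in units of 1e6) with a median of 12.5 M. Totals were under 2 M in 3 libraries, replicates 4 and 5 of the OVA arm with PM and, in the OVA arm without PM, replicate 4. Sample numbers of PM libraries come from a separate series. Whether these libraries were prepared or run apart from the others is not given in the sources used here, and any such difference cannot be told apart from PM. Sftpc, Scgb1a1, Ager and Cdh5, markers of alveolar type 2, club, alveolar type 1 and endothelial cells, were expressed in all 4 groups. Lung tissue holds many cell types, and fewer cells of a type cannot be told apart from less RNA per cell.

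A cytosolic ribosome joins a large and a small subunit, each built of ribosomal RNA and of proteins that are present mostly once per particle. The genes of these proteins are transcribed together in growing cells, and their messenger RNAs are short and abundant. Most of these messengers start with a C and a run of pyrimidines, the 5′ terminal oligopyrimidine (TOP) tract, through which the mTORC1 kinase and the RNA-binding protein LARP1 control their translation and stability. Dividing and activated lymphocytes are rich in ribosomes.

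The sequence at the start of transcription is shown for 7 of these genes because it holds the element that the family shares. Each line gives 60 bases before and 20 bases from the annotated start, on the gene's own strand, from RefSeq on GRCm38.p6. Capitals mark a tract, here a C followed by at least 4 pyrimidines, with that C within 5 bases of the start. They run from the qualifying C nearest the start, and pyrimidines just before that C stay in small letters. The windows are chr17:33955646-33955725 (minus strand) for Rps18, chr4:86857348-86857427 (minus) for Rps6, chr7:141447591-141447670 (plus) for Rplp2 and chr7:45128726-45128805 (minus) for Rpl13a. They are chr16:33056422-33056501 (plus) for Rpl35a, chr5:115559407-115559486 (plus) for Rplp0 and chr10:128549149-128549228 (minus) for Rpl41.
Rps18: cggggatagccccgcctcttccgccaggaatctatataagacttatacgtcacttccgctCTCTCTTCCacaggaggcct
Rps6: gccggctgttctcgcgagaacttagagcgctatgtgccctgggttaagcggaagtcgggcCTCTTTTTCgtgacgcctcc
Rplp2: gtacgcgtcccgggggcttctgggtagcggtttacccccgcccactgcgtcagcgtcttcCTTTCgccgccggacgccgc
Rpl13a: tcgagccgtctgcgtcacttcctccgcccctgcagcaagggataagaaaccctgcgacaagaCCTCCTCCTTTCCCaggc
Rpl35a: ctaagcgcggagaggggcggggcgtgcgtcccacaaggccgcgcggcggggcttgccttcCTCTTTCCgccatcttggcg
Rplp0: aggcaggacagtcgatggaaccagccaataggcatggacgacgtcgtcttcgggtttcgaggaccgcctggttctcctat
Rpl41: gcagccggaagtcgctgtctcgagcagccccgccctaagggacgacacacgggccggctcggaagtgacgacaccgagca
In Rps18, Rps6, Rplp2 and Rpl35a a C followed by such a stretch lies on the annotated start, which for Rpl35a is 1 of 3 starts in RefSeq. In these genes the run of pyrimidines itself reaches back before the annotated start, so the start falls inside the run. The windows of its starts at chr16:33056453 and chr16:33056514, not printed, held no tract within 10 bases. The windows of Rplp0 and Rpl41 held no tract within 10 bases, which says only that these letters are not there. Annotated starts can lie away from the start used in a tissue: those of Rps6 and Rplp2 were 45 and 61 bases from the nearest GENCODE start. The printed start of Rpl35a was 16 bases from the nearest, while its start at chr16:33056453 was itself a GENCODE start.

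RefSeq windows of 300 bases, from 250 before to 50 after a start, matched 62 of the 83 genes with 74 windows. A C exactly at the start, followed by at least 4 pyrimidines, was in 17.6% of the ribosomal windows and in 2.51% of all 32851 windows. What came before the C was not asked, so starts inside a longer run of pyrimidines were counted too. With such a C within 5 bases of the start the share was 41.9% against 18.3%. It was 55.4% against 30.7% within 10 bases and 75.7% against 49.4% within 20 bases. The tract was therefore more frequent at ribosomal starts than at starts in general at each of the 4 distances, and the gap was widest in relative terms at the start itself. Besides the tract, 5 sequence motifs were counted on both strands of these windows. CCGGAAG was in 35.1% of the ribosomal windows against 8.86% of all. TTCCGG, which overlaps the reverse complement of CCGGAAG, was in 47.3% against 14.9%. CTTTCC was in 48.6% against 26.6%, and the longer CTCTTTCC, which contains it, was in 17.6% against 3.12%. The letters TATAAA were less frequent than in all windows, with 9.46% against 13.6%. These are letter matches only.

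The ribosomal protein genes took between 2.55% and 6.26% of the counts of a library. Levels are given as counts per 1e6 counts of a library, scaled by trimmed means of M values (CPM), which is not corrected for transcript length. Levels of different genes are therefore set against each other per kilobase of transcript. Of the 76 genes that are not paralogues, 72 had a mean of at least 10 CPM, and these are called the core genes. Their means ran from 42.4 to 1666 CPM, and per kilobase from 59.8 to 2612 CPM, a 43.7-fold range around a median of 569 CPM per kilobase. Transcripts of the core genes were 367.5 to 5130 nt long with a median of 833 nt.

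The 6 genes with the highest mean CPM, a choice that favours long transcripts, were Rpl4, Rplp1, Rps3, Rps9, Rpl7 and Rps24. Per kilobase, Rplp1, which encodes a stalk protein that contacts elongation factors, stood first of these at 2612 CPM. Rps9 followed at 1286 CPM per kilobase and Rpl4 at 1083, then Rpl7 at 908, Rps3 at 667 and Rps24 at 624. Genes outside these 6 also stood high per kilobase, among them Rps29 at 1827 CPM. Among the genes with enough counts for a test in at least 1 comparison the lowest means were 0.615 CPM for Rpl30, 1.28 CPM for the striated-muscle paralogue Rpl3l and 1.88 CPM for Rpl34. Per kilobase they came to 0.844, 0.930 and 3.41 CPM. Rpl30 and Rpl34 encode regular proteins of the large subunit.

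Rpl26 had 0 counts in all 22 libraries, which at 264.6 M counts in all allows up to 0.0113 CPM, and Rps27 had a mean of 2.07 CPM. These 2 genes were singled out after their values were seen, and both also encode regular subunits of the ribosome. Reads of this family can be shared with processed copies elsewhere in the genome. Of the 82 members with an annotated coding transcript, 78 shared a stretch of 75 bases with another gene, and 32 had fewer than 50% of their 75-base windows to themselves. Rps27 had 1.48% of its windows unique and Rpl26 had 54.6%. Rpl35, chosen after its value was seen, had 10.8% and a mean of 233 CPM. The part of shared reads in these levels was not tested. Across the 72 core genes, Spearman's rho of CPM per kilobase and the unique share was 0.10, and over all 82 it was -0.021. How the counting treated reads with several places is not given in the sources used here, and levels and changes of these genes are uncertain to that extent.

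The genes of the family moved together from library to library. For each core gene the correlation of its log2 CPM with the mean of the other core genes, over the 22 libraries, was 0.85 to 0.99 with a median of 0.95. The paralogues stood apart in part. Rps27l, a p53 target in human cells, followed the core at 0.96 and Rpl22l1, the paralogue of Rpl22, at 0.85, while Rpl7l1 came to 0.74. Rps4l, annotated in GENCODE as a transcribed processed pseudogene, ran the other way at -0.41. These correlations are over libraries that also differ in depth and in composition.

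**Figure D1:**
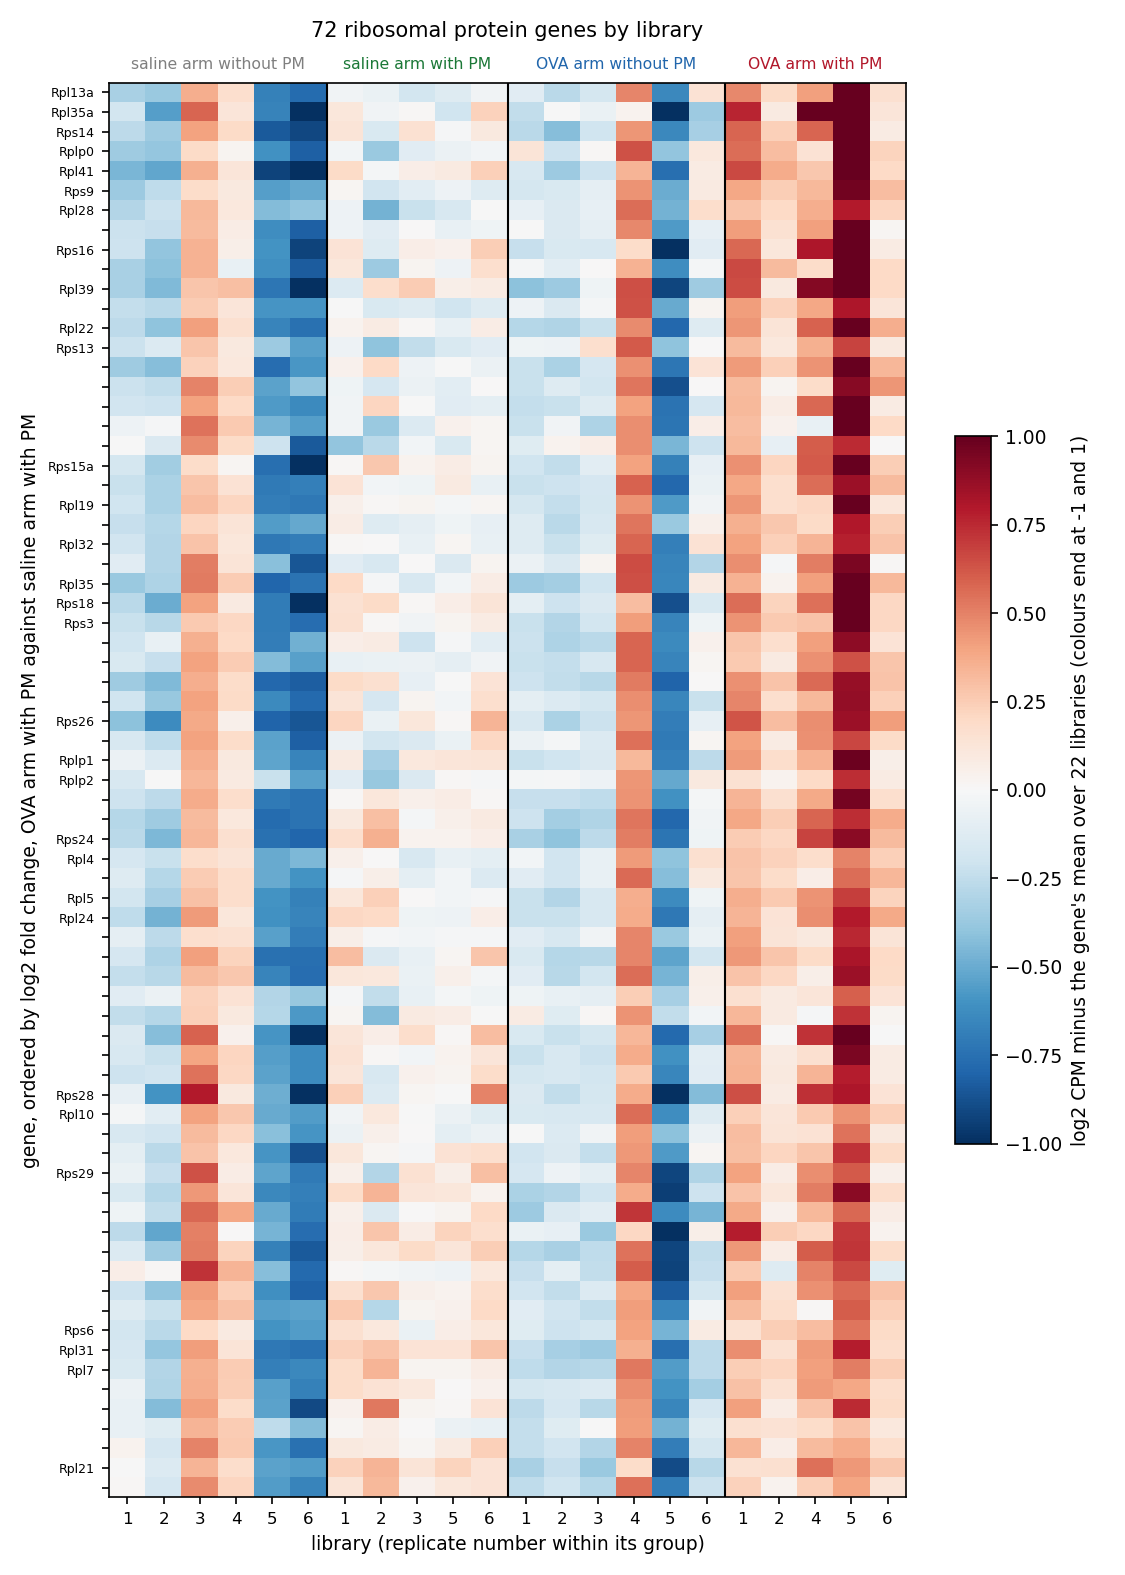
Log2 level of each of the 72 core ribosomal protein genes (rows) in each of the 22 libraries (columns, by group), as the difference from the gene's mean over all libraries, with names for the genes described in the text. Whole columns share a colour: among the libraries without PM, replicates 5 and 6 of the saline arm and replicate 5 of the OVA arm are below the mean for all 72 genes, and replicate 5 of the OVA arm with PM is above it for all 72.

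The mean log2 level of the 72 core genes, as a difference from the mean over all libraries, was -0.21 ± 0.42 (SD, n = 6) in the saline arm without PM. Its 6 libraries had -0.72 at the lowest, -0.24 at the median and 0.38 at the highest. In the saline arm with PM the 5 libraries had 0.07, -0.01, -0.01, 0.00 and 0.07. This was the tightest group, with an SD of 0.04 around a mean of 0.03.

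In the OVA arm without PM the level was -0.14 ± 0.36 (SD, n = 6), from -0.67 through a median of -0.17 to 0.46. In the OVA arm with PM the 5 libraries had 0.39, 0.15, 0.39, 0.84 and 0.18, with a mean of 0.39 ± 0.27 (SD). All 5 lay above all 5 of the saline arm with PM, and both groups without PM overlapped every other group. The highest value of the whole set was replicate 5 of the OVA arm with PM, a library of 1.13 M counts, and the highest of the OVA arm without PM was replicate 4, with 1.84 M counts.

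**Figure D2:**
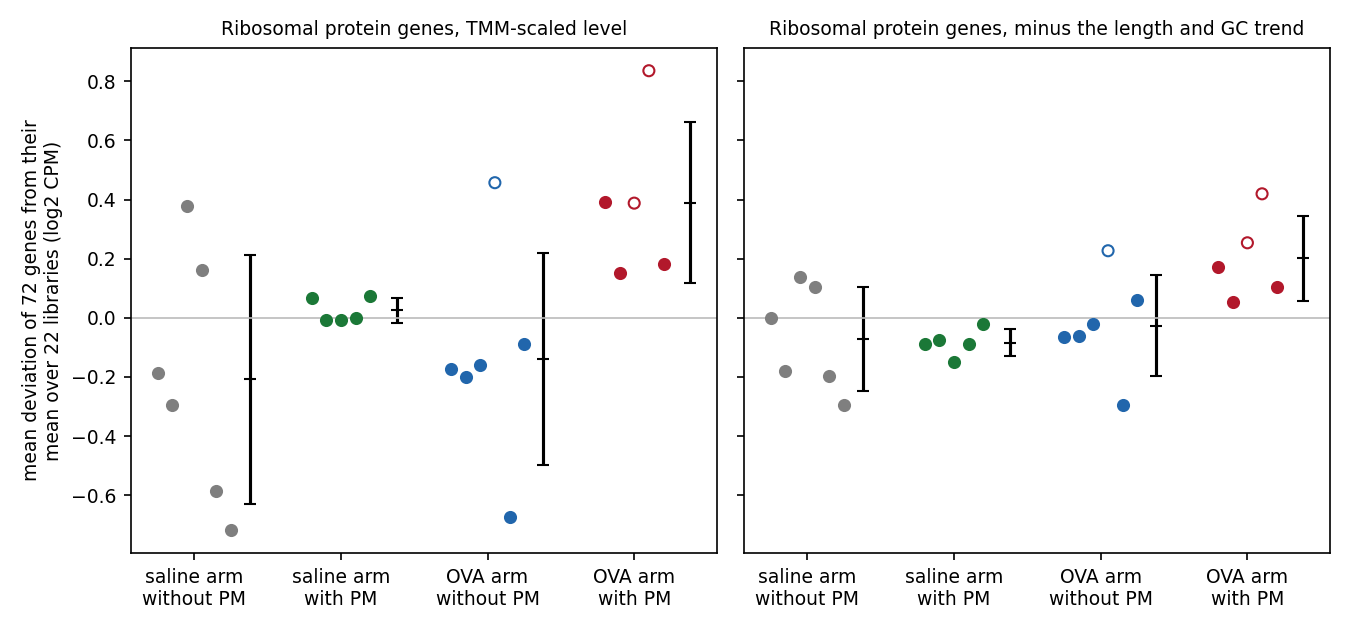
Mean log2 level of the 72 core ribosomal protein genes per library, by group, before (left) and after (right) subtraction of the level predicted from the length and GC content of other genes in the same library. Points are libraries, open circles mark totals under 2 M counts, and bars give the mean and SD; the 5 OVA libraries with PM lie above the 5 saline libraries with PM in both panels.

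The libraries also differed in how transcripts of different length were represented. Over 10403 other genes, the slope of a gene's log2 deviation on log2 transcript length was 0.055 ± 0.137 (SD) in saline libraries without PM and 0.067 ± 0.101 in OVA libraries without PM. With PM the slope was -0.053 ± 0.021 in the saline arm and -0.094 ± 0.064 in the OVA arm. A negative slope means that short transcripts were relatively more abundant than over all libraries. In an exact two-sided permutation test the difference between OVA libraries with and without PM had p = 0.0152, and p = 0.0606 adjusted over the 4 comparisons. For PM in the saline arm p was 0.128 (adjusted 0.255), for OVA with PM 0.214 (adjusted 0.286) and for OVA without PM 0.838 (adjusted 0.838), each by exact permutation.

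Over the 22 libraries, the level of the core genes and this slope had r = -0.94, and the level and the log2 of the library total had r = -0.61. Both are descriptions of libraries in 4 groups. When the level predicted from length and GC content of the other genes was subtracted, the means without PM came to -0.07 ± 0.18 for the saline arm and -0.03 ± 0.17 for the OVA arm, and those with PM to -0.08 ± 0.05 and 0.20 ± 0.14. The OVA libraries with PM then stood at 0.17, 0.05, 0.25, 0.42 and 0.11, all above the saline libraries with PM, which ran from -0.15 to -0.02. Whether the length trend takes part in the level of these genes was not tested.

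The effect of OVA without PM was the first comparison, of 6 libraries of the OVA arm against 6 of the saline arm. Of the 83 genes, 79 had enough counts for the test in this and each other comparison of 2 groups, and Rpl10l, Rpl39l, Rpl26 and Rpl30 had not. None of the 79 rose and 1 fell in edgeR's quasi-likelihood test, at an adjusted p of 0.05 over all genes. An unadjusted p under 0.05 was found for 1 of the 79, against 5147 of all 14632 genes tested. Over all genes 14.4% were called higher and 9.27% lower. The median log2 fold change of the 79 was 0.05, against -0.02 over all genes, with 54 of 79 above 0. DESeq2 also called 0 higher and 1 lower. With an offset that takes each library's trend of the other genes with length and GC content out of the test, 2 rose and 0 fell, beside 15.5% of all genes higher and 17.9% lower.

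The gene that fell was the pseudogene Rps4l. Its level ran from 20.4 through a median of 27.9 to 33.8 CPM in the saline arm and from 17.1 through 21.1 to 25.4 CPM in the OVA arm. The groups overlapped, and the log2 fold change was -0.39 ± 0.13 (SE) with an adjusted p of 0.0438. The call rested on single libraries. It held in 4 of 12 fits that left out a library, and was lost without replicate 2, 4, 5 or 6 of the saline arm or replicate 1, 3, 4 or 6 of the OVA arm, with an adjusted p of up to 0.108. It held in 8 of 13 other settings, and the adjusted p was 0.0546 with the length and GC offset.

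Of 24 tested TOP mRNA partners, other genes whose messengers carry such a tract, 3 rose and 0 fell in that comparison, with a median of 0.11, a share below the 14.4% of all genes called higher. They were Pabpc1, the cytoplasmic poly(A)-binding protein, by 0.63 ± 0.09 on the log2 scale (adjusted p = 0.000224), Eif4b by 0.37 and Eef2 by 0.30. Among cell markers, 8 of 8 B cell, 6 of 8 T cell and 6 of 6 proliferation genes were higher, and 4 of 6 endothelial genes were lower.

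PM in the saline arm was compared in 5 libraries with PM against 6 without. Of 79 ribosomal protein genes 0 rose and 0 fell, while over all genes 5.47% were higher and 7.37% lower. DESeq2 gave 0 and 0 as well. An unadjusted p under 0.05 in edgeR's test was found for 7 of the 79, against 4664 of all 14496 genes tested. The median log2 fold change was 0.20, with 69 of 79 above 0. Other genes under 750 nt moved as far: their median was 0.25 (266 genes), and that of the 33 ribosomal protein genes of that length was 0.24.

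With the length and GC offset the median of the family in that comparison went to -0.001. Then 0 rose and 7 fell, among them Rplp2 and Rps27l, with 4.53% of all genes higher and 4.76% lower. The values of Rplp2 in the offset test were a log2 fold change of -0.34 (adjusted p = 0.0168), and without the offset of -0.06 (adjusted p = 0.797). The count also rested on single libraries, since 26 genes rose when replicate 3 of the saline arm without PM was left out, beside 12.9% of all genes. Leaving out any other library gave 0 or 1.

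PM in the OVA arm was compared in 5 libraries with PM against 6 without. All 79 tested ribosomal protein genes had a log2 fold change above 0, with a median of 0.49 against -0.002 over all genes. Of these, 13 rose and 0 fell in edgeR's test, where 2.27% of all genes were higher and 6.87% lower. An unadjusted p under 0.05 was found for 55 of the 79 and for 4151 of all 14657 genes tested. The 13 were 7 of the large subunit (Rpl5, Rpl21, Rpl22, Rpl24, Rpl31, Rpl35a and Rpl41) and 6 of the small subunit (Rps14, Rps15a, Rps16, Rps18, Rps26 and Rps28).

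Rpl35a, 1 of the genes mutated in Diamond-Blackfan anaemia in humans, had the largest change. Its OVA libraries without PM ran from 16.2 through a median of 49.3 to 56.2 CPM. Those with PM had 92.8, 58.3, 151, 168 and 59.6 CPM. It was the only one of the 79 whose groups did not overlap, with a log2 fold change of 1.06 ± 0.31 (SE) and an adjusted p of 0.0466. Groups without overlap were not counted over all genes.

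Rps14, which is lost from 1 copy in a form of human myelodysplastic syndrome, had 436 to 925 CPM without PM with a median of 552. With PM it had 1016, 801, 1016, 1940 and 720.5 CPM. Its groups overlapped through replicate 4 without PM, and the log2 fold change was 0.87 ± 0.24 (adjusted p = 0.0373). Rps16 changed by 0.83 ± 0.22 (adjusted p = 0.0344), Rpl41 by 0.82 ± 0.23 (0.0406), Rpl22 by 0.70 ± 0.20 (0.0404) and Rps18 by 0.70 ± 0.19 (0.0341). Among genes that did not pass were Rpl39 at 0.82 (0.0514), Rpl13a at 0.64 (0.0828), Rplp0 at 0.40 (0.174) and Rps6 at 0.33 (0.128). Over the other settings and the fits that left out a library, the adjusted p of Rpl35a ran from 0.0223 to 0.659 and that of Rps14 from 0.0046 to 0.182.

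The count of 13 depended on the fit. With the length and GC offset 0 of the genes rose and the median was 0.19, while 0.255% of all genes were higher and 0.601% lower. Without the libraries under 2 M counts 54 rose, beside 10% of all genes, and in a fit of all 4 groups 23 rose, beside 3.85%. Of the 13, 11 were among the 54 and 12 among the 23. DESeq2 called 38, beside 3.81%. With library totals in place of TMM factors 15 rose, while over all genes 184 were higher and 1870 lower, against 332 and 1007. Leaving out replicate 4 of the OVA arm without PM gave 69, beside 9.38% of all genes, and leaving out any other library gave 0 to 6, beside 0% to 2.1%.

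The authors' deposited table for the same comparison, with their own adjusted p, held 22 ribosomal protein genes higher and 0 lower at 0.05, of 77 with an adjusted p. Of all genes with an adjusted p in the authors' deposited table, 5.76% were higher and 9.82% lower. In the authors' deposited table for OVA without PM 0 were higher and 1 lower, beside 15.7% and 12.9% of all genes. In the authors' deposited table for PM in the saline arm 0 were higher and 0 lower, beside 7.91% and 11.9%. Among other short genes, those under 750 nt had a median log2 fold change of 0.41 and 18.8% higher calls with PM in the OVA arm. The 33 ribosomal protein genes of that length had 0.50 and 24.2%.

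**Figure D3:**
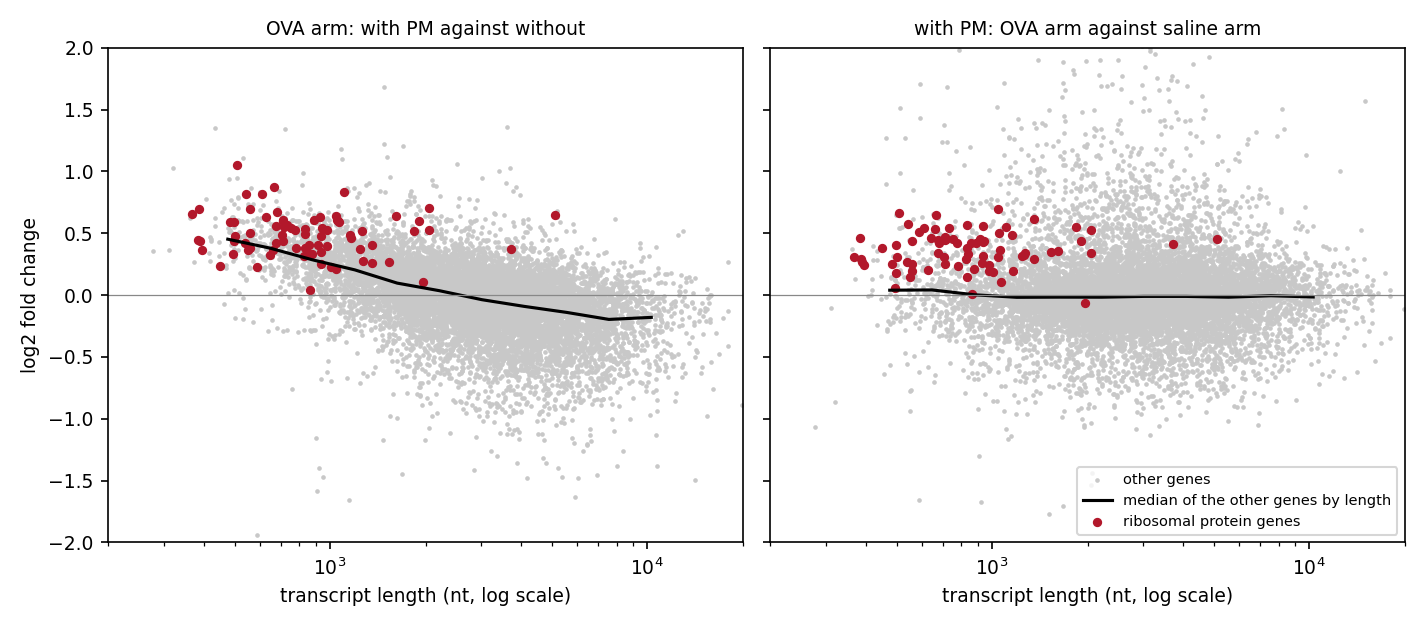
Log2 fold change of genes whose mean is 10 CPM or more against transcript length on a log axis, for PM in the OVA arm (left) and for the OVA arm against the saline arm with PM (right). Red points are ribosomal protein genes, grey points other genes, and the line is the median of the other genes; under 750 nt other genes have a median of 0.41 on the left and 0.04 on the right, and the ribosomal protein genes 0.50 and 0.38.

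With PM in both groups, the 5 OVA libraries were compared with the 5 saline libraries. Of 79 tested ribosomal protein genes, 42 rose and 0 fell in edgeR's quasi-likelihood test, beside 13.2% of all genes higher and 9.57% lower. The median log2 fold change was 0.35 against -0.006 over all genes, with 77 of 79 above 0. The 42 were 24 of 41 large subunit genes, 16 of 30 small subunit genes, 2 of 3 stalk genes and 0 of 5 paralogues, and their log2 fold changes ran from 0.29 to 0.69.

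In 31 of the 79 the OVA libraries all lay above the saline libraries, and 26 of these were among the 42. How many of all genes had groups without overlap was not counted, so the 31 are not a result about the family. Other genes under 750 nt had a median of 0.04 and 13.2% higher calls. The 33 ribosomal protein genes of that length had a median of 0.38, with 51.5% called higher. In the longer classes 11 of 20 rose from 750 nt to under 1000 nt, 7 of 14 from there to under 1500 nt and 3 of 5 from there to under 2000 nt.

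**Figure D4:**
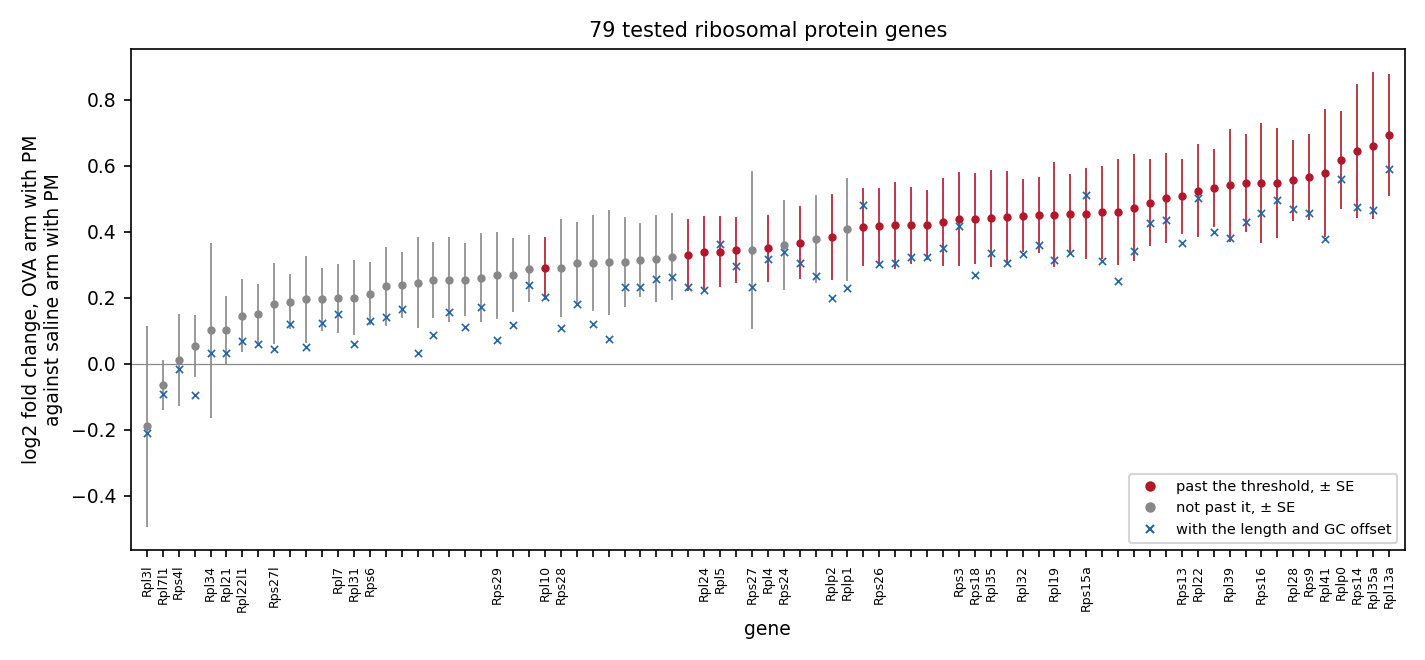
Log2 fold change of the 79 tested ribosomal protein genes in the OVA arm with PM against the saline arm with PM, ordered by size, with bars of 1 SE and names for the genes described in the text. Red points passed the test and grey points did not, crosses give the value with the length and GC offset; from Rpl10 at 0.29 to Rpl13a at 0.69, 42 genes passed, and the paralogues are at the left end.

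The stalk, which recruits elongation factors to the ribosome, was higher at Rplp0 and Rplp2. Rplp0, its anchoring protein, had 552, 435, 519, 541 and 552 CPM in the saline libraries with PM. It had 827, 695, 620, 1161 and 658 CPM in the OVA libraries with PM. All 5 OVA libraries were above all 5 saline libraries, and the means were 792 ± 221 and 520 ± 49.1 CPM (SD, n = 5 each). The log2 fold change was 0.62 ± 0.15 (SE) with an adjusted p of 0.00526, and it was at most 0.0294 in all 13 other settings and 10 fits that left out a library. Rplp2 changed by 0.38 ± 0.13 (adjusted p = 0.0408) and Rplp1 by 0.41 ± 0.16 (adjusted p = 0.0707), so only 2 of the 3 passed. Rplp2 passed in 6 of the 13 other settings and in 4 of the 10 fits that left out a library, with an adjusted p of up to 0.140.

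Rpl13a, which in interferon-treated human cells also acts outside the ribosome, had 876, 861, 790, 824 and 879 CPM in the saline libraries with PM. In the OVA libraries with PM it had 1257, 1029, 1197, 2332 and 1007 CPM. The groups did not overlap, and replicate 5 of the OVA arm was the highest. The log2 fold change was 0.69 ± 0.18 (SE), the largest of the family here, with an adjusted p of 0.0112 and at most 0.0485 in the same settings and fits.

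Rpl13a, Rpl32, Rpl19 and Rps18 are common reference transcripts in qPCR, and all 4 rose in this comparison. Rpl32 changed by 0.45 ± 0.11 (adjusted p = 0.00605), from 669 ± 22.2 to 911 ± 148 CPM, and its groups did not overlap. In the fit of all 4 groups its adjusted p was 0.114, the only 1 of the 13 other settings over 0.05, and the range over all of them and the fits that left out a library began at 0.000177. Rpl19 changed by 0.45 ± 0.16 (adjusted p = 0.0489) and Rps18 by 0.44 ± 0.14 (0.0289). These 2 calls were less stable: Rpl19 passed in 3 and Rps18 in 6 of the 10 fits that left out a library. Neither passed in the fit of all 4 groups. Over all settings and leave-outs the adjusted p reached 0.143 for Rpl19 and 0.179 for Rps18.

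Among the others with the largest changes, Rpl35a rose by 0.66 ± 0.22 (adjusted p = 0.0408), Rps14 by 0.65 ± 0.20 (0.0287) and Rpl41, which encodes the shortest protein of the ribosome, by 0.58 ± 0.19 (0.0393). The groups of these 3 genes overlapped, and each was highest in replicate 5 of the OVA arm. Without the libraries under 2 M counts Rpl35a and Rps14 had adjusted p values of 0.111 and 0.0947. Over all settings and leave-outs the adjusted p ran from 0.00946 to 0.121 for Rpl35a and from 0.00821 to 0.115 for Rps14. Rpl39, also very short, rose by 0.54 ± 0.17 (0.0307).

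Rps6, the substrate of the S6 kinases that read out mTORC1 activity, did not pass. It had 437, 420, 372, 408 and 423 CPM in the saline libraries with PM and 434, 464, 483, 566 and 445 CPM in the OVA libraries with PM. The groups overlapped by 1 OVA library, and the log2 fold change was 0.21 ± 0.10 (adjusted p = 0.127). Rps29, one of the smallest proteins of the small subunit, had 0.27 ± 0.13 (adjusted p = 0.165).

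None of the 5 tested paralogues passed. Rpl7l1 had 120, 108, 117, 106 and 105 CPM in the saline libraries with PM and 107, 109, 107, 107 and 101 CPM in the OVA libraries with PM. Its groups overlapped, with a log2 fold change of -0.06 ± 0.07 (adjusted p = 0.602). Rpl22l1 had 0.15 ± 0.11, Rps27l 0.18 ± 0.12, Rps4l 0.01 ± 0.14 and Rpl3l -0.19 ± 0.31. Rpl10l, a testis paralogue, had 1 count in 1 library, and Rpl39l, likewise known from testis, had 47 counts in all, so both were not tested.

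**Figure D5:**
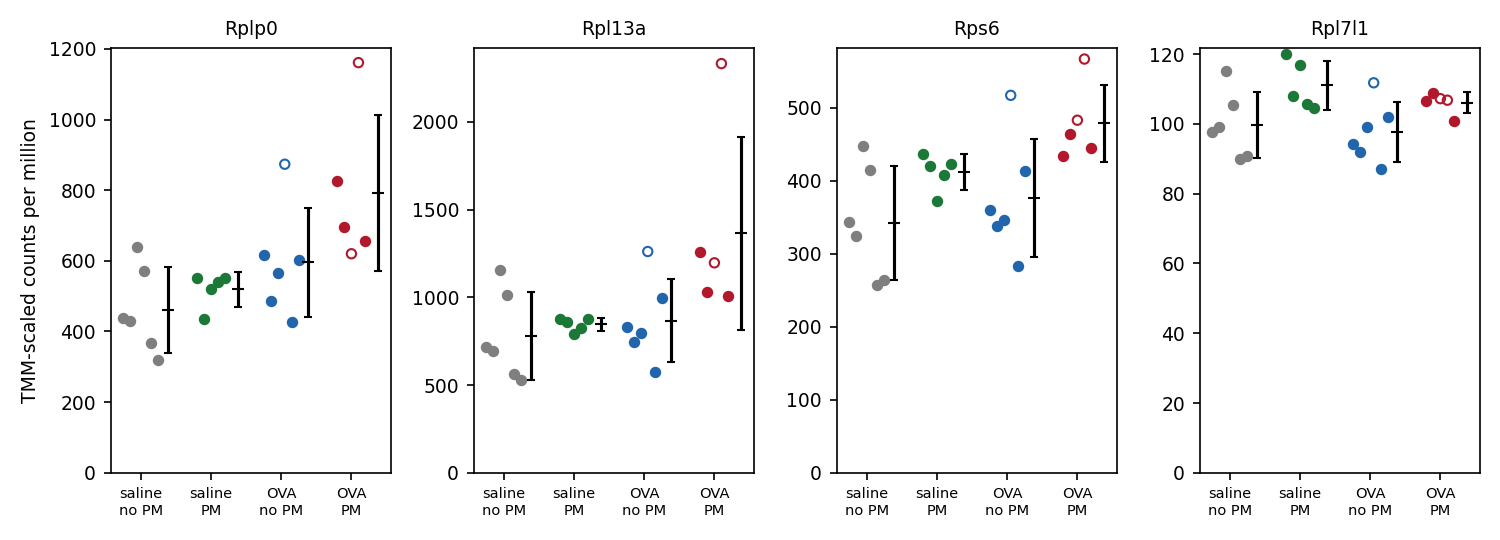
CPM of Rplp0, Rpl13a, Rps6 and Rpl7l1 in each library, by group, with the mean and SD beside the points and open circles for libraries under 2 M counts. Rplp0 and Rpl13a show no overlap between the OVA and saline libraries with PM, Rps6 overlaps by 1 OVA library, and Rpl7l1 stays between 87.0 and 120 CPM in all 22 libraries.

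The count of 42 was 43 with the length and GC offset, 40 of them shared, with a median of 0.26, beside 14.9% of all genes higher and 14.1% lower. DESeq2 also called 43, of which 38 were shared, beside 11.4% of all genes. Without the libraries under 2 M counts, which leaves 3 OVA libraries, 22 rose, all among the 42, beside 13.7% of all genes, and the median was 0.22. With the offset as well, a setting chosen after seeing the data, 31 rose beside 15.3% of all genes. In a fit of all 4 groups, which estimates 1 spread from all 22 libraries, 6 rose beside 10.8% of all genes. With library totals 27 rose, and over all genes 1509 were higher and 1922 lower, against 1880 and 1364. Leaving out 1 library at a time gave 22 to 47. The 22 came without replicate 3 or replicate 5 of the saline arm, beside 12.2% and 11.3% of all genes, and the 47 without replicate 2 of the OVA arm, beside 11.7%.

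In that comparison 6 genes passed in all 14 settings and in each of the 10 fits that left out a library. Among them were Rplp0, Rpl13a and Rps9, together with Rpl28 and Rps13, which were singled out after their values were seen. Rps9 changed by 0.57 ± 0.13 (adjusted p = 0.00415), from 976 ± 54.4 to 1440 ± 329 CPM. Rpl28 changed by 0.56 ± 0.12 and Rps13 by 0.51 ± 0.11. The groups of all 6 did not overlap. How many of all genes passed in all these fits or had groups without overlap was not counted, so the 6 are not a result about the family. For PM in the OVA arm 0 ribosomal protein genes passed in all settings.

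The calls of this comparison were also counted by the tract at the start. Of 29 tested genes with a tract 17 rose, with a median of 0.42, and of 30 with windows but no tract 16 rose, with a median of 0.34. Among TOP mRNA partners outside the ribosome, 14 of 24 rose and 0 fell, with a median of 0.34, beside the 13.2% of all genes called higher. Pabpc1 rose by 0.63 ± 0.09 (adjusted p = 5.68e-05), the initiation factor gene Eif4b by 0.53 ± 0.09 and the initiation factor gene Eif3f by 0.46 ± 0.09.

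The other lists were counted for the OVA against the saline arm with PM. Of the mitochondrial ribosomal protein genes, which serve the separate ribosome of that organelle, 1 of 77 rose and 1 fell, with a median of 0.02. Of 39 genes of ribosome biogenesis 0 rose and 2 fell, with a median of -0.03. They were Sbds, which helps to free new large subunits for joining, by -0.44 ± 0.09, and Heatr1, a pre-ribosomal RNA processing factor, by -0.28 ± 0.09. Of 35 cytosolic translation factors and regulators 3 rose and 0 fell, with a median of 0.05. In all 3 lists the shares lay below the 13.2% of all genes called higher and the 9.57% called lower.

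Markers of cell types moved in the same comparison. Higher were 7 of 8 B cell, 3 of 8 T cell, 5 of 7 monocyte and interstitial macrophage and 6 of 6 proliferation genes, and 6 of 6 alveolar type 1, 6 of 6 endothelial and 3 of 6 heart muscle genes were lower. The summed B cell markers had 302 to 398 CPM in the saline libraries with PM and 526 to 968 CPM in the OVA libraries with PM. Without PM they had 227 to 321 CPM in the saline arm and 414 to 739 CPM in the OVA arm. The summed proliferation markers had 38.4 to 68.9 CPM and 134 to 349 CPM with PM, and 29.6 to 44.9 CPM and 105 to 332 CPM without. The part of these cells in the levels of the ribosomal protein genes was not tested.

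With PM in the OVA arm the lists stood differently. Of the TOP mRNA partners 2 of 24 rose (Btf3 and Tomm20), with a median of 0.32, and of the mitochondrial ribosomal protein genes 9 of 77 rose and 0 fell, with a median of 0.25, beside the 2.27% of all genes called higher. There 0 of 8 B cell, 0 of 8 T cell and 0 of 6 proliferation genes rose, and 5 of 6 endothelial and 4 of 6 heart muscle genes fell. Heart muscle markers summed to 35.3 to 384 CPM without PM and to 47.3 to 137 CPM with PM. With PM in the saline arm 1 of 24 TOP mRNA partners (Npm1) and 3 of 77 mitochondrial genes rose, shares below the 5.47% of all genes called higher. Of the cell markers there, 3 of 8 B cell, 0 of 8 T cell, 5 of 7 monocyte and interstitial macrophage, 2 of 6 neutrophil and 3 of 6 proliferation genes rose. Lower were 5 of 6 endothelial genes and 1 of 6 heart muscle genes, and the heart muscle genes had a median of -1.09.

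The effects of PM in the 2 arms were set against each other in a fit of all 4 groups. No ribosomal protein gene of 80 passed in either direction, beside 0% of all genes higher and 0.0937% lower. The difference had a median of 0.31 over the 80 and 0.007 over all genes, 77 of 80 were above 0, and 1, Rps4l, had an unadjusted p under 0.05 (0.0466, log2 difference 0.42 ± 0.20). Over all genes 571 of 14942 had an unadjusted p under 0.05. DESeq2 called 0 of the ribosomal protein genes as well. The larger number of calls for PM in the OVA arm was therefore not shown to differ from that in the saline arm.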

How the data were processed

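Lung poly(A) RNA of 22 libraries was measured by stranded single-end sequencing of 75 cycles from 400 ng of total RNA, with 24 libraries pooled per run, per the labels' protocols. The submitters' processing notes name bcl2fastq and the mm10 build. How reads were aligned and counted is not given in the sources used here. Raw read counts were deposited by the authors per gene for 3 pairs of groups. The 12 library columns that stood in 2 of these tables were identical, and the tables were joined. Of 24421 gene rows, 16 with names turned into dates (0.152% to 0.195% of a library's counts) were left out. The log2 fold changes, p-values and adjusted p-values in the authors' deposited statistics tables, per the file headers, were used only where named. The deposited normalised values differed in scale between tables and were not used here.

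Genes were filtered (minimum count 10, minimum total count 15), scaled with TMM factors and tested with edgeR 4.0.16 (quasi-likelihood F test, R 4.3.3) within each pair of groups, with Benjamini-Hochberg adjustment over all genes tested and a threshold of 0.05. The difference between the arms came from a fit of all 4 groups. The SE of a log2 fold change was obtained by dividing it by the root of its F value. Levels are TMM-scaled CPM, with a prior count of 2 on the log2 scale. Transcript length and GC content are medians over the GENCODE M21 (GRCm38) basic coding transcripts of the best APPRIS rank, or over the other transcripts of a gene without one. That definition was chosen after lengths and levels, and before any comparison, had been looked at. The length and GC offset is a natural spline with 4 degrees of freedom per library over genes averaging 10 CPM or more, without the ribosomal protein genes unless stated. Slopes were compared with exact permutation tests. The test was run on simulated counts first. Alternatives were DESeq2 1.42.0, other scalings and filters, the replicate number as a block, the offset, leaving out the libraries under 2 M counts and leaving out each library in turn.

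The members and lists were chosen with earlier results of these data known. Genes named were, per comparison, the 5 largest changes each way among called genes averaging 1 CPM or more, the 6 highest and 3 lowest levels, a set fixed by role (stalk, Rps6, reference transcripts, the shortest proteins and the paralogues), and up to 3 of each other list. Library totals limit the precision most in the 3 libraries under 2 M counts. Replicates differed by more than sampling noise, with a chi-square per degree of freedom of 2.63 to 84.9, so no 2 were taken as copies. Sequences are from RefSeq on GRCm38.p6. Some genes were counted but are not reported here by name.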

Additional observations from a re-analysis of the deposited data

Results flagged for a closer look

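Of 132 groups of 5 or 6 libraries examined, the 4 groups over 33 quantities, 18 held a library far from the rest of its group, where chance gives about 1 in 20. The quantities share the same libraries and are not independent. In 9 of the 18, replicate 5 of the OVA arm with PM, with 1.13 M counts, was the high one. Its values were 2332 CPM for Rpl13a, 1401 CPM for Rpl19, 1167 CPM for Rpl32, 1591 CPM for Rpl41, 784 CPM for Rplp2 and 1940 CPM for Rps14. It also had 185 CPM for Rps27l, 2517 CPM for Rps3 and 2023 CPM for Rps9. Replicate 4 of the OVA arm without PM, with 1.84 M counts, was high with 1481 CPM for Rpl7, 925 CPM for Rps14 and 151 CPM for Rps27l. Replicate 5 of the same group was low with 16.2 CPM for Rpl35a. In the saline arm with PM, replicate 2 was low with 435 CPM for Rplp0 and 1001 CPM for Rplp1, replicate 3 was high with 130 CPM for Rps27l, and replicate 5 held the single count of Rpl10l, 0.0358 CPM. Replicate 6 of the OVA arm with PM was low with 101 CPM for Rpl7l1.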

How the results depend on the processing

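The number of ribosomal protein genes called depended on the processing in all comparisons of 2 groups. For OVA with PM and PM in the OVA arm the median stayed above 0 and no gene was called lower in any fit. For PM in the saline arm and OVA without PM the direction of the calls and the sign of the median also changed with the setting. For OVA with PM 42 rose, and the count was 27 with library totals, 6 in the fit of all 4 groups, 27 with the replicate block and 22 without the libraries under 2 M counts. Leaving out 1 library gave 22 to 47, and the median stayed above 0 in all of these fits. For PM in the OVA arm 13 rose. The count was 38 with DESeq2, 23 in the fit of all 4 groups, 54 without the libraries under 2 M counts and 0 with the replicate block, with either offset and with block and offset together. With the offset and without those libraries, a setting chosen after seeing the data, it was 5 and the median came to 0.18 from 0.49. Leaving out 1 library gave 0 to 69. For PM in the saline arm 0 rose and 0 fell. The count of higher genes was 1 with the filter of 1 CPM, 12 with the block and 2 with block and offset, and that of lower genes was 7 with either offset, with and without the block. Leaving out 1 library gave 0 to 26 higher and 0 to 1 lower. The median went from 0.20 to -0.001 with the offset. For OVA without PM 1 fell. The count was 0 with library totals, with either offset and without the libraries under 2 M counts, and 0 to 1 on leaving out 1 library. The number higher was 1 with the block, 3 and 2 with the offset with and without the ribosomal protein genes in the trend, and 4 with block and offset. The median went from 0.05 to -0.070 without the libraries under 2 M counts. The cause of these shifts was not tested. No share of all genes called in the same fit is given for the block, for block with offset, for the filter of 1 CPM or for the offset over all genes. That share changed with the setting: for PM in the OVA arm 0.255% were higher with the offset and 10% without the libraries under 2 M counts. Counts printed without it are not a result about the family. With library totals the median of all genes for PM in the OVA arm was -0.11, and that of the ribosomal protein genes 0.39. Fits with fewer libraries did not always call fewer genes. For PM in the OVA arm 54 ribosomal protein genes rose without the libraries under 2 M counts, against 13 with all libraries. Of all genes 10% were higher there, against 2.27%. The replicate numbers were not taken to pair the libraries, since in each comparison some same-numbered libraries had a correlation of their deviations of 0.1 or less. The correlations ran from -0.20 to 0.72 for OVA without PM, -0.18 to 0.17 for PM in the saline arm, -0.27 to 0.19 for PM in the OVA arm and -0.096 to 0.19 for OVA with PM. The number over 0.1 was 3 of 6, 2 of 5, 1 of 5 and 1 of 4 pairs in that order, and 3 of 12, 4 of 10, 1 of 10 and 1 of 8 libraries correlated best with their own number.

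Named genes that passed the test kept their direction in every setting, and 98 values of genes that had not passed changed sign. For OVA without PM these were, without the libraries under 2 M counts, -0.012 for Rplp2, -0.035 for Rpl19, -0.11 for Rpl39 and -0.0014 for Rpl22l1, and with the block 0.012 for Rps27l. Leaving out 1 library gave -0.012 to 0.19 for Rplp2, -0.035 to 0.23 for Rpl19, -0.11 to 0.25 for Rpl39, -0.0014 to 0.29 for Rpl22l1 and -0.15 to 0.14 for Rps27l. It gave -0.16 to 0.080 for Rplp1, -0.0065 to 0.30 for Rps18, -0.19 to 0.16 for Rps29, -0.14 to 0.27 for Rpl3l and -0.052 to 0.033 for Rpl7l1. For PM in the saline arm Rplp1 came to -0.028, -0.039 and -0.018 with the offset over all genes, the offset without the ribosomal protein genes and the latter with the block. In the same order Rpl32 came to -0.067, -0.073 and -0.047, Rps29 to -0.18, -0.19 and -0.22, Rpl22l1 to -0.17, -0.18 and -0.18, and Rps27l to -0.26, -0.27 and -0.27. Rplp2 ran from -0.14 to 0.040 on leaving out 1 library. For PM in the OVA arm the offset over all genes gave -0.17 for Rplp2, -0.0069 for Rps6, -0.030 for Rps29, -0.21 for Rpl22l1, -0.0021 for Rpl7l1, -0.16 for Rps27l and -0.022 for Rps4l. The offset without the ribosomal protein genes gave -0.15 for Rplp2, -0.0091 for Rps29, -0.20 for Rpl22l1, -0.00099 for Rpl7l1, -0.14 for Rps27l and -0.015 for Rps4l. With the block as well the values were -0.15 for Rplp2, -0.0075 for Rps6, -0.13 for Rpl22l1 and -0.13 for Rps27l. Without the libraries under 2 M counts and with that offset they were -0.15 for Rplp2, -0.016 for Rps6, -0.14 for Rpl22l1, -0.0034 for Rpl7l1 and -0.20 for Rps27l. Rps4l was -0.067 with library totals and -0.024 to 0.12 on leaving out 1 library. For OVA with PM Rps27l was -0.016 with that offset and without the libraries under 2 M counts. Rps4l was -0.058 with library totals, -0.050 with the block, -0.025 and -0.017 with the offsets, -0.12 with block and offset and -0.079 to 0.11 on leaving out 1 library. In the difference between the arms Rps6 was -0.0053 with library totals, -0.019 and -0.0071 with the offsets, -0.028 with block and offset and -0.027 with the offset and without the libraries under 2 M counts. Rpl22l1 was 0.0020 with the offset without the ribosomal protein genes, 0.010 with the block added, 0.11 without the libraries under 2 M counts and 0.047 with both changes. Leaving out 1 library gave -0.015 to 0.18 for Rps6 and -0.12 to 0.16 for Rpl22l1.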
